A study of Mus musculus with 14 samples.

Results

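The 6 whole-testis libraries of a mouse RNA-seq study of Tsga8 are described here, out of 14 libraries in all. Each library was total RNA of an adult whole testis. 3 came from control males, whose genotype is Tsga8+/Y, and 3 from knockout males, whose genotype is Tsga8-/Y. The labels name no other allele, no Cre driver and no treatment. The remaining 8 libraries are laser-captured regions of the tubule, 2 control and 2 knockout from regions of steps 4 to 8 spermatids and as many from regions of steps 1 to 3 and 9 to 16. They are used here only to show how genes found in whole testis behaved there. The series text speaks of replicate animals, but the labels do not tie a library to an animal, so each p-value measures the spread between these libraries.

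The table held 25965 genes, and the 8146 with an RPKM (reads per kilobase of gene span, scaled to sequencing depth) of at least 1 in 3 of the 6 libraries were tested. Of those, 185 lay on the X chromosome and 2 on the Y chromosome. The 7959 autosomal genes, out of 24483 in the table, are the subject of what follows. Depth was 30388508 to 49147310 reads per library. Tsga8, itself X-linked, stood at 106, 88.6 and 104 RPKM in controls 1, 2 and 3 and at 2.62, 2.12 and 3.20 RPKM in knockouts 1, 2 and 3. The level of the targeted gene fits the labels of all 6 libraries, and germ cell and somatic testis genes such as Prm1, Insl3 and Vim were present in each.

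Tsga8 is a testis gene of haploid germ cells, the round and elongating spermatids that remodel their nucleus, grow a tail and shed most of their cytoplasm. Whole testis also holds meiotic spermatocytes, spermatogonia, the Sertoli cells that nurse them, and the cells between the tubules, among them Leydig cells and macrophages. In RNA from such a mixture, fewer cells of a type and less RNA per cell cannot be told apart.

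In knockout testis 332 autosomal genes were higher and 84 were lower by limma with Benjamini-Hochberg adjusted p under 0.05. Those are 4.17% and 1.06% of the autosomal genes tested, or 5.23% together. At an unadjusted p under 0.05 the number was 2252. The 3 knockout libraries were all above the 3 controls for 25% of autosomal genes and all below them for 7.24%, and every called gene was among these. Changes were small. The median difference of the higher genes was 0.50 on the log2(RPKM + 1) scale and that of the lower genes was -0.46. A difference of at least 1 was found for 12 higher and 8 lower genes. The median of all autosomal genes was 0.09 higher in knockout, and setting every library to the same median took the counts to 191 higher and 220 lower, of which 190 and 84 were among the genes called before. The excess of higher over lower calls therefore did not hold under that scaling. With the replicate number as a block the counts were 506 higher and 140 lower.

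**Figure D1:**
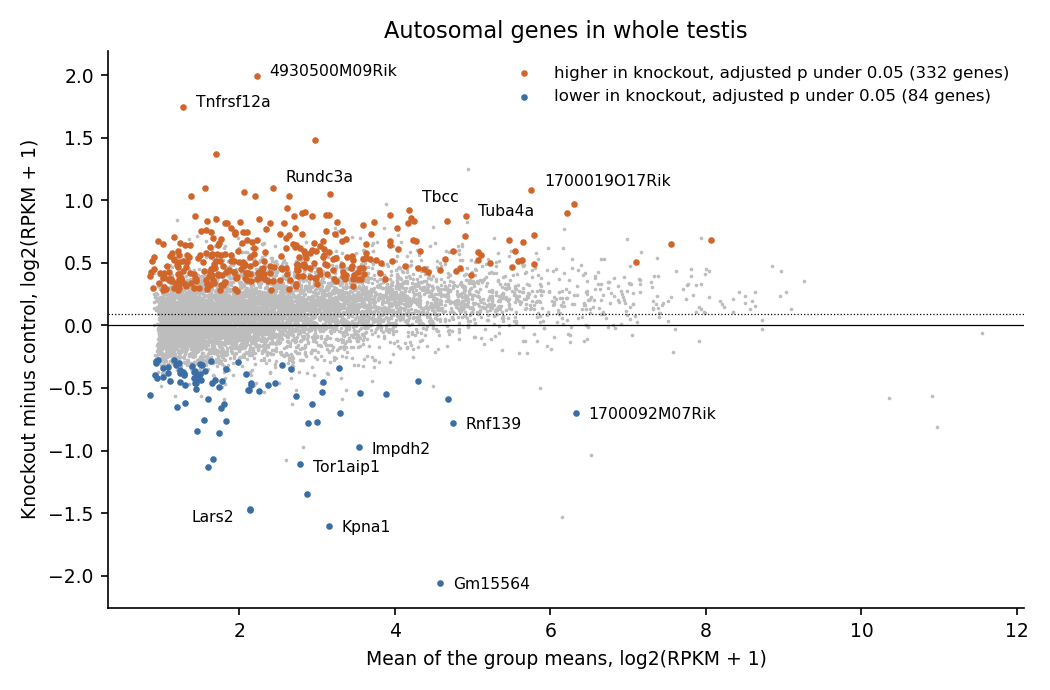
Difference between knockout and control (vertical axis, log2(RPKM + 1)) against the mean over the 6 libraries (horizontal axis, same scale) for the 7959 autosomal genes, each point a gene. The 332 called higher and 84 called lower genes are coloured, and 12 and 8 of them lie beyond a difference of 1.

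Individual libraries had a large part in these counts. Without control 1 the counts were 1247 higher and 175 lower, and without knockout 1 they were 827 and 252. Without control 2 they were 40 and 9, without control 3 they were 34 and 8, without knockout 2 they were 24 and 9, and without knockout 3 they were 18 and 5. Of 121 autosomal genes named by rule, 87 kept their call when control 1 or knockout 1 was left out but lost it when any other library was left out, and 12 stayed called in all 6 cases. A called gene given below without a count of leave-outs kept its call in 1 to 5 of the 6, and lost it without at least 1 of controls 2 and 3 and knockouts 2 and 3.

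Base composition moved with genotype as well. Among 6984 autosomal genes with transcripts in the mouse annotation, the difference between knockout and control had a Spearman rho of 0.52 with GC content and of -0.36 with exon length, given as a description across genes. The deviation of each library from the gene mean had a rho with GC of -0.12, -0.53 and -0.41 in controls 1, 2 and 3 and of 0.15, 0.31 and 0.59 in knockouts 1, 2 and 3. In the tenth of genes poorest in GC, with a median of 40.1%, 1 gene was called higher and 28 lower. In the tenth richest in GC, above 58.2%, 97 were called higher and 1 lower. With the trend on GC taken out of each library, 127 genes were higher and 31 lower, or 1.82% and 0.444% of 6984, and 112 and 27 of them were among the 332 and 84. The part of base composition in any single result was not tested, and the adjusted p with the trend removed is given beside results that lost their call. Among genes named below, 1700019O17Rik, 4922505E12Rik, 4930443B20Rik, CAAA01154301.1 and Nelf had no GC value.

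**Figure D2:**
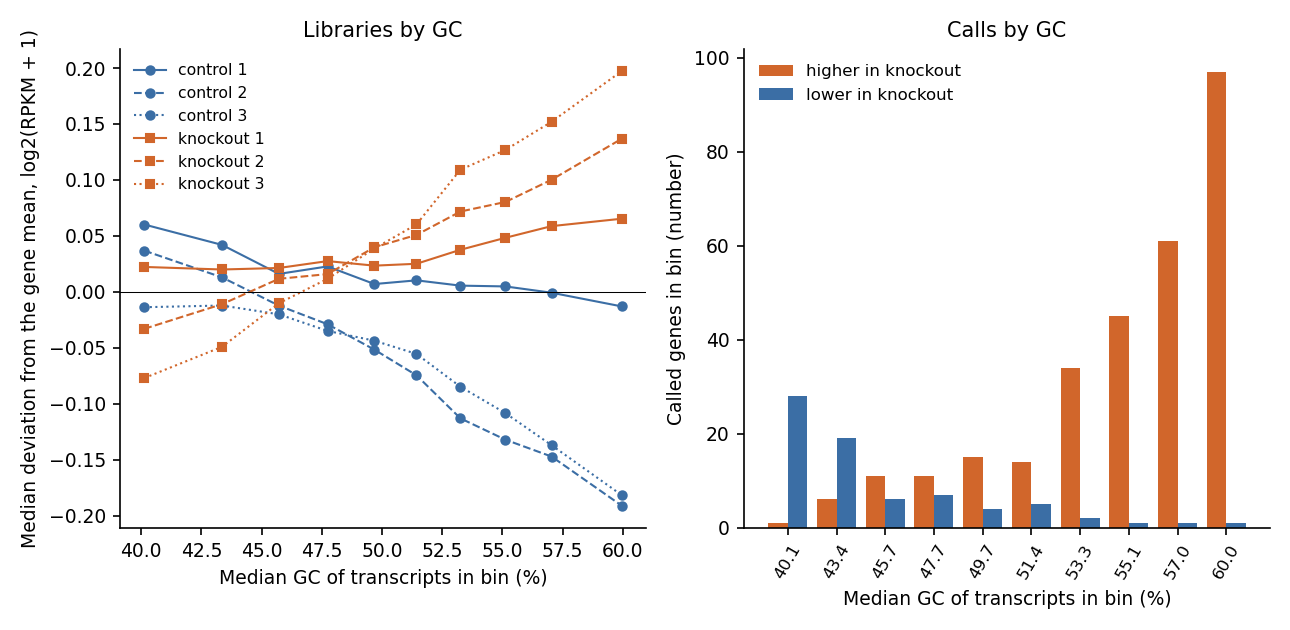
Left, median deviation of each library from the gene mean (log2(RPKM + 1)) in 10 bins of genes ordered by transcript GC (horizontal axis, median GC of the bin in percent), with controls in blue and knockouts in orange. Right, number of genes called in each bin, which runs from 1 higher and 28 lower in the first to 97 higher and 1 lower in the last.

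5 of the 84 lower genes and 17 of the 332 higher ones were called in each of the 6 leave-outs and under each of 3 other scalings. This group of 22 was picked after its values were seen. The lower ones were Tor1aip1, Impdh2, Cyb5d1, BC005561 and 4930443B20Rik. Tor1aip1 encodes LAP1, an inner nuclear membrane protein that binds lamins and switches on the torsin ATPases. Impdh2 encodes the rate-limiting enzyme of guanine nucleotide synthesis. Tor1aip1, Impdh2 and Tbcc, a higher gene described further on, each moved in 1 direction in whole testis and in captured steps 4 to 8 regions. Their promoters are shown for that reason. They run from 250 bases before to 50 bases after the RefSeq start in GRCm38.p6, are written 5′ to 3′ on the gene's strand, and lie at chr1:156036431-156036730 (minus), chr9:108560186-108560485 (plus) and chr17:46890371-46890670 (plus). Capitals mark matches on either strand to TGACGTCA and TGACG (the CRE and its shorter form), CCAAT and GGGCGG (the GC box).
Tor1aip1: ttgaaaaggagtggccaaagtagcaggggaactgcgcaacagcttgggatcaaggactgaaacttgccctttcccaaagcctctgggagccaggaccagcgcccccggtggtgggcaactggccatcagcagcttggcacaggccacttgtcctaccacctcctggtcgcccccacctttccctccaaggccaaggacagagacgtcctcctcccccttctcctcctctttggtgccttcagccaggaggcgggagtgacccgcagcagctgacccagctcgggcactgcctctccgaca
Impdh2: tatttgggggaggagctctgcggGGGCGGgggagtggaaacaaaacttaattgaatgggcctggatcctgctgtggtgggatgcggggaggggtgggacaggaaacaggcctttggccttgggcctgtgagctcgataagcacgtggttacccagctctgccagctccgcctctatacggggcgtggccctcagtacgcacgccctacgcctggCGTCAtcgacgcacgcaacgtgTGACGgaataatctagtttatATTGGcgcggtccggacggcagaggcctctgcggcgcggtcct
Tbcc: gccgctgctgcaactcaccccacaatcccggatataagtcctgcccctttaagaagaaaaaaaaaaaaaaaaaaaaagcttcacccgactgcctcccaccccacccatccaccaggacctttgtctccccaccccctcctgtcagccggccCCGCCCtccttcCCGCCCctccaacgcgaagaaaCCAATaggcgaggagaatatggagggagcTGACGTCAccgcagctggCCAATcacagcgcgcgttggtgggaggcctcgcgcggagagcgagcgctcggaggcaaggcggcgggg
The Tor1aip1 window held none of the 4 motifs. The Impdh2 window held 2 TGACG, 1 CCAAT and 1 GGGCGG. The Tbcc window held 1 TGACGTCA, whose letters contain both of its TGACG matches, with 2 CCAAT and 2 GGGCGG. Of 32851 such mouse promoter windows, 1.79% hold TGACGTCA, 20.8% TGACG, 37.4% CCAAT and 35.7% GGGCGG. A match is a description of the letters and not a bound site.

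Tor1aip1 (chr1:156004599-156036480, mm10) stood at 7.85, 10.3 and 9.23 RPKM in controls 1, 2 and 3 and at 3.31, 4.24 and 3.56 RPKM in the knockouts. The knockout libraries lay close together and far below every control, at 40.5% of the control mean. The difference was -1.11 ± 0.12 (SE) on the log2(RPKM + 1) scale with a limma adjusted p of 0.00332, and the highest adjusted p in any leave-out was 0.0228. Its neighbour Tor1aip2, which encodes another torsin activator and overlaps it by 1078 bases on the opposite strand, stood at 3.08, 3.08 and 2.84 RPKM in controls and at 2.30, 1.99 and 2.15 RPKM in knockouts, a difference of -0.35 ± 0.07 (limma adjusted p = 0.0343, and 0.0532 with the GC trend removed). Whether counting used strand is not given in the sources used here, so reads in the overlap cannot be assigned to either gene.

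Impdh2 (chr9:108560534-108565519) stood at 16.5, 15.2 and 14.1 RPKM in controls and at 7.46, 7.29 and 7.07 RPKM in knockouts. The 3 knockouts were nearly equal at 47.6% of the control mean, a difference of -0.97 ± 0.08 (limma adjusted p = 0.0011, at most 0.0139 in any leave-out). Mice also carry a pseudogene of Impdh2, and the authors' counting could split reads with it. Cyb5d1, which encodes a protein with a cytochrome b5-like haem-binding domain, stood at 3.30, 3.41 and 3.31 RPKM in controls and at 1.86, 1.73 and 1.85 RPKM in knockouts. Its groups were each tight and did not overlap (-0.63 ± 0.06, limma adjusted p = 0.00249).

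The remaining 2 of the 5 carry clone names. BC005561 stood at 2.56, 2.64 and 3.20 RPKM in controls and at 1.36, 1.00 and 1.38 RPKM in knockouts (-0.76 ± 0.10, limma adjusted p = 0.0075). 4930443B20Rik stood at 2.87, 2.87 and 2.36 RPKM in controls and at 1.45, 1.46 and 1.47 RPKM in knockouts (-0.59 ± 0.08, limma adjusted p = 0.0075). In both, each knockout library was below every control. All 5 of these genes were lower on average in the captured steps 4 to 8 regions, with a median difference of -1.42. In the captured steps 1 to 3 and 9 to 16 regions 4 of 5 were lower, and Impdh2 was higher on average (0.56).

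Rcc1, the exchange factor that loads the Ran GTPase with GTP on chromatin, fell as well. It stood at 9.13, 9.55 and 8.54 RPKM in controls and at 5.95, 6.07 and 5.81 RPKM in knockouts, a difference of -0.54 ± 0.07 (limma adjusted p = 0.0102). It kept its call in 4 of 6 leave-outs and lost it without control 2 (0.0526) or knockout 3 (0.074). Per1, a repressor of the circadian clock, stood at 9.04, 9.32 and 7.25 RPKM in controls and at 5.98, 4.33 and 5.20 RPKM in knockouts (-0.63 ± 0.13, limma adjusted p = 0.0343). Rnf139, a ubiquitin ligase of the endoplasmic reticulum, stood at 28.8, 37.4 and 36.8 RPKM in controls and at 19.9, 20.6 and 17.9 RPKM in knockouts (-0.78 ± 0.12, limma adjusted p = 0.0161). Tatdn1, a gene of the TatD nuclease family on the opposite strand, overlaps Rnf139 by 12238 bases and shares 1140 bases of transcript with it. It moved with Rnf139, from 9.76, 12.6 and 12.4 RPKM in controls to 6.89, 7.06 and 6.16 RPKM in knockouts (-0.70 ± 0.11, limma adjusted p = 0.0173), so the pair cannot be counted as independent losses. Rnf139 and Tatdn1 were called in 2 of 6 leave-outs and Per1 in 3.

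**Figure D3:**
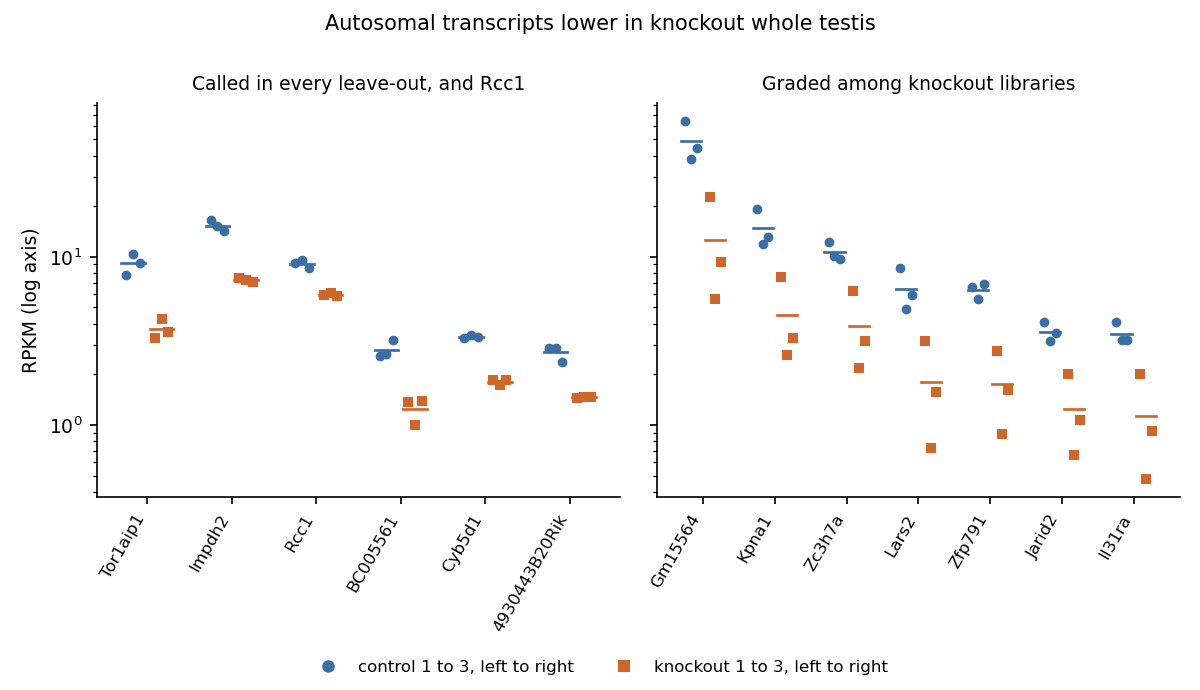
RPKM (log axis) of autosomal genes lower in knockout, with controls 1 to 3 as blue circles and knockouts 1 to 3 as orange squares from left to right, and group means as bars. In the left panel the knockout values of each gene are tight (7.07 to 7.46 RPKM for Impdh2), and in the right panel they are graded (2.62 to 7.54 RPKM for Kpna1).

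A second kind of loss was graded among the knockout libraries, lowest in knockout 2 and highest in knockout 1. Kpna1, which encodes an importin alpha that carries proteins into the nucleus, stood at 19.3, 11.9 and 13.2 RPKM in controls and at 7.54, 2.62 and 3.30 RPKM in knockouts (-1.60 ± 0.31, limma adjusted p = 0.0307, and 0.131 at most in a leave-out). Control 1 was the highest control and knockout 1 the highest knockout. Zc3h7a, which encodes a zinc finger protein that binds RNA, had the same order, at 12.2, 10.2 and 9.69 RPKM in controls and 6.24, 2.18 and 3.17 RPKM in knockouts (-1.35 ± 0.27, limma adjusted p = 0.033).

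Lars2, the mitochondrial leucyl-tRNA synthetase, stood at 8.59, 4.91 and 5.89 RPKM in controls and at 3.14, 0.724 and 1.57 RPKM in knockouts (-1.47 ± 0.31, limma adjusted p = 0.0364). Jarid2, a partner of the Polycomb repressive complex that methylates histone H3, stood at 4.08, 3.14 and 3.52 RPKM in controls and at 2.00, 0.658 and 1.06 RPKM in knockouts (-1.07 ± 0.20, limma adjusted p = 0.0275). Il31ra, a cytokine receptor, stood at 4.08, 3.22 and 3.18 RPKM in controls and at 2.00, 0.474 and 0.921 RPKM in knockouts (-1.13 ± 0.23, limma adjusted p = 0.0349). In each, the groups did not overlap and knockout 2 was lowest. Zfp791, a zinc finger gene, followed them at 6.58, 5.59 and 6.91 RPKM in controls and 2.74, 0.883 and 1.61 RPKM in knockouts (-1.47 ± 0.22, limma adjusted p = 0.0141).

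This order of the knockouts, 2 below 3 below 1, was found for 53 of the 84 lower genes (63.1%) and for 23.7% of all autosomal genes. Kpna1, Zc3h7a, Lars2, Jarid2 and Il31ra were called only in the 2 leave-outs without a library numbered 1, and Zfp791 in 4 of 6. Malat1, a nuclear long non-coding RNA, had the same order without a call, at 138.5, 127.9 and 124.1 RPKM in controls and 86.5, 36.7 and 78.6 RPKM in knockouts (-1.03 ± 0.29, limma adjusted p = 0.0726). It was named after its values were seen.

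Gm15564, a non-coding gene on the opposite strand of Kpna1, overlaps it by 4481 bases and had the largest autosomal difference. It stood at 64.5, 38.2 and 44.6 RPKM in controls and at 22.8, 5.62 and 9.33 RPKM in knockouts, or 25.7% of the control mean (-2.06 ± 0.42, limma adjusted p = 0.0358). Exon 2 of its transcript, 71 bases long, matched a Lars2 transcript of another chromosome with 1 mismatch, in the last exon of Lars2. Among 141767 mouse transcripts searched with up to 7 mismatches, only transcripts of these 2 genes held it. As background, its letters are those of large-subunit ribosomal RNA. 30 bases of it are shown because reads from either gene, or from ribosomal RNA, can carry them, at chr16:35981730-35981759 (minus, GRCm38), with the capital marking the base that differs from Lars2.
Gm15564: ggaacgtgagctgggTttagaccgtcgtga
Reads of Gm15564 and Lars2 could therefore have been split between them. The stretch also lies within the span of Kpna1, and whether counting used strand is not given. Over the 6 libraries, reads recovered from RPKM ran from 4138 to 32293 for Gm15564 and from 6668 to 34286 for Kpna1. Only transcripts were searched, so copies of the stretch in introns of other genes were not looked for. How many reads fell in the stretch was not tested, and Gm15564, Lars2 and Kpna1 are given as uncertain.

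The lower genes were long and poor in GC. The 84 lower genes had a median GC of 43.2% and a median exon length of 6979.5 bases, against 50.5% and 3389 bases for all autosomal genes, and 56.4% and 2719 bases for the 332 higher genes. Fsip2, a very large protein of the sperm tail sheath, stood at 7.26, 7.56 and 11.6 RPKM in controls and at 4.92, 3.76 and 5.26 RPKM in knockouts (-0.78, limma adjusted p = 0.046). Rif1, which guards replication timing and broken DNA ends, stood at 4.34, 4.69 and 5.23 RPKM in controls and at 3.09, 2.67 and 3.21 RPKM in knockouts (-0.53, limma adjusted p = 0.0215). The groups did not overlap in either gene, yet both lost the call with the GC trend removed, where the limma adjusted p was 0.115 for Fsip2 and 0.0715 for Rif1.

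Counts in each list and family, here and below, are to be read beside the 1.06% lower and 4.17% higher of all autosomal genes. The lists and families were chosen with earlier results of these data known. Of 47 nuclear transport genes tested, 3 fell and none rose: Kpna1, Rcc1 and Ranbp2. The fall of Kpna1 is uncertain, since its reads were not told apart from those of Gm15564. Ranbp2, the Ran-binding nucleoporin of the cytoplasmic filaments, stood at 3.99, 3.98 and 4.56 RPKM in controls and at 2.96, 2.12 and 2.79 RPKM in knockouts (-0.52, limma adjusted p = 0.0339, and 0.087 with the GC trend removed). The median of the 47 was -0.04 beside 0.09 for all autosomal genes. Of 44 chromatin regulators, 2 fell and 1 rose, with a median of -0.07. The losses were Setd2, a histone H3 methyltransferase of transcribed genes (-0.38, limma adjusted p = 0.0364), and Chd1, a chromatin remodeller (-0.28, limma adjusted p = 0.0496), and both lost the call with the GC trend removed (0.087 and 0.152). The gain was Ehmt2, the G9a methyltransferase, from 18.8, 17.3 and 16.9 RPKM in controls to 22.5, 24.9 and 24.6 RPKM in knockouts (0.42, limma adjusted p = 0.0349, and 0.116 with the GC trend removed).

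Of 13 cohesin and chromosome structure genes, 1 fell and the median was -0.16. That gene was Smc1b, the cohesin subunit of meiotic chromosomes, at 5.53, 5.56 and 5.49 RPKM in controls and 4.41, 4.09 and 4.21 RPKM in knockouts (-0.32, limma adjusted p = 0.0371, and 0.153 with the GC trend removed). Tex15, which acts in meiosis and in silencing transposons, and Cep290, a protein of the ciliary transition zone, fell by 0.42 and 0.29 (limma adjusted p = 0.0446 and 0.0485). They too lost the call with the GC trend removed (0.175 and 0.281).

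Among the 332 higher genes, the largest difference of a gene with a full name was that of Tnfrsf12a, the receptor for the cytokine TWEAK. It stood at 0.657, 0.183 and 0.196 RPKM in controls and at 2.11, 3.73 and 4.98 RPKM in knockouts (1.74 ± 0.23, limma adjusted p = 0.00906). It was called in all 6 leave-outs. Of 17 neuroendocrine and secretory genes tested, 5 rose and none fell, with a median of 0.22. Rundc3a, a gene of neurons and endocrine cells, stood at 2.48, 2.72 and 2.93 RPKM in controls and at 5.30, 7.75 and 8.03 RPKM in knockouts (1.10 ± 0.14, limma adjusted p = 0.00746), in all 6 leave-outs. Aplp1, which belongs to the family of the amyloid precursor protein, stood at 1.26, 0.850 and 0.942 RPKM in controls and at 2.76, 4.54 and 5.80 RPKM in knockouts (1.37, limma adjusted p = 0.012). Every knockout of these genes was above every control, and knockout 1 was the lowest of its group.

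Outside that list, several genes were also called in all 6 leave-outs and all 3 scalings. Ctxn1, a small membrane protein of brain, stood at 5.52, 5.65 and 5.78 RPKM in controls and at 8.80, 10.4 and 11.6 RPKM in knockouts (0.75, limma adjusted p = 0.00906). Scrt1, a neuronal transcriptional repressor, stood at 2.13, 2.56 and 2.22 RPKM in controls and at 4.10, 4.84 and 4.73 RPKM in knockouts (0.75, limma adjusted p = 0.00428). Nelf, now Nsmf in RefSeq, stood at 3.07, 3.20 and 2.64 RPKM in controls and at 6.44, 6.10 and 5.50 RPKM in knockouts (0.82 ± 0.09, limma adjusted p = 0.0034). In all of them the control libraries were tight. Slc37a4, the glucose 6-phosphate transporter of the endoplasmic reticulum, rose by 0.66, the phosphatase Dusp2 by 0.64, the adaptor Stap2 by 0.73 and Acap1, a GTPase-activating protein of Arf6, by 0.52 (limma adjusted p = 0.00714, 0.00334, 0.00371 and 0.00746). Acap1 stood at 0.489 to 0.601 RPKM in controls and passed the filter only through the knockouts. Knockout 1 was the lowest knockout for 264 of the 332 higher genes (79.5%) and for 42.4% of all autosomal genes.

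Immediate early genes, which cells switch on within minutes of a stimulus, rose in part. Of 16 tested, 5 rose and 1 fell, with a median of 0.23. Junb stood at 1.65, 0.874 and 0.639 RPKM in controls and at 2.78, 3.36 and 3.82 RPKM in knockouts (1.10, limma adjusted p = 0.0176). Jun stood at 2.47, 1.97 and 1.54 RPKM in controls and at 3.36, 3.97 and 4.74 RPKM in knockouts (0.75, limma adjusted p = 0.027). Ier2 stood at 1.51, 1.14 and 1.21 RPKM in controls and at 2.54, 2.69 and 3.42 RPKM in knockouts (0.76, limma adjusted p = 0.00984). Of the 3, Ier2 was called in all 6 leave-outs, Junb in 3 and Jun in 2.

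The antiproliferative gene Btg2 (0.65) and Zfp36, which destabilises messenger RNA (0.43), also rose (limma adjusted p = 0.018 and 0.0299). Btg2 stood at 0.558 to 0.695 RPKM in controls, so it passed the filter only through the knockouts. Egr3, a zinc finger factor of the same early response named after its values were seen, moved the other way, from 3.42, 2.92 and 2.58 RPKM in controls to 1.95, 1.5 and 2.01 RPKM in knockouts (-0.49, limma adjusted p = 0.0384). Of 13 genes of the integrated stress response 2 rose: Ddit3, the CHOP factor (0.54, limma adjusted p = 0.0234), and Gadd45b, a stress-induced regulator of kinase signalling (0.70, limma adjusted p = 0.0482, 0.0812 with the GC trend removed and 0.0593 with the replicate block). The time from death to lysis of the tissue is not in the labels.

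**Figure D4:**
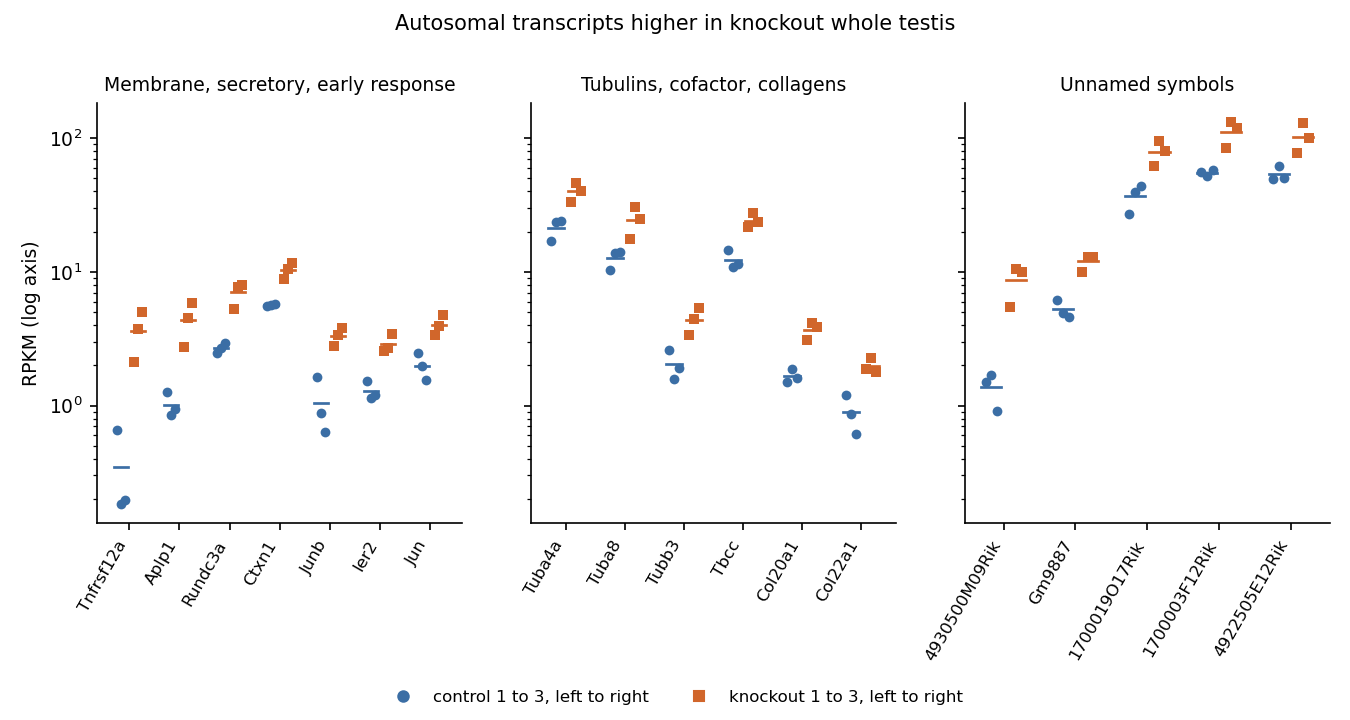
RPKM (log axis) of autosomal genes higher in knockout, with controls 1 to 3 as blue circles and knockouts 1 to 3 as orange squares from left to right, and group means as bars. No knockout value overlaps a control value of the same gene, and knockout 1 is the lowest knockout for most (2.11 RPKM for Tnfrsf12a against 3.73 and 4.98).

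Tubulins, the subunits of the microtubules of the manchette and tail, rose in part. Of 14 tested, 3 rose and none fell, with a median of 0.32 and 13 differences above 0. Of all 7959 autosomal genes, 5587 had a difference above 0. Tuba4a stood at 16.9, 23.4 and 23.9 RPKM in controls and at 33.2, 46.4 and 40.6 RPKM in knockouts (0.88 ± 0.17, limma adjusted p = 0.0294). Tuba8 stood at 10.4, 13.7 and 14.2 RPKM in controls and at 17.7, 30.5 and 24.8 RPKM in knockouts (0.86, limma adjusted p = 0.046, and 0.0685 with the GC trend removed). Tubb3 stood at 2.62, 1.59 and 1.93 RPKM in controls and at 3.38, 4.47 and 5.35 RPKM in knockouts (0.82, limma adjusted p = 0.0312). All 3 were called in 2 of 6 leave-outs. The germ cell tubulins Tuba3a (0.35, limma adjusted p = 0.0931) and Tubb4b (0.29, limma adjusted p = 0.176) did not pass.

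Tbcc, the cofactor that completes the folding of tubulin dimers and whose promoter is shown above, stood at 14.6, 10.9 and 11.5 RPKM in controls and at 21.7, 27.4 and 23.5 RPKM in knockouts (0.92 ± 0.13, limma adjusted p = 0.0118). It was called in 3 of 6 leave-outs, with at most 0.0598. Of 21 kinesins, which are microtubule motors, 2 rose and none fell: Kif21b by 0.57 and Kifc3 by 0.51 (limma adjusted p = 0.0105 and 0.0138). The kinesins as a family did not rise, with a median of -0.02 and 10 differences above 0. None of 24 dynein subunits was called in either direction (median -0.02). Tsks, the substrate of the testis-specific serine kinases, rose by 0.84 and Spag4, a nuclear envelope protein of the sperm head and tail junction, by 0.53 (limma adjusted p = 0.0141 and 0.0396). Kifc3 and Spag4 lost the call with the GC trend removed (0.0538 and 0.0947).

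Collagens had the largest share of calls of any family, with 4 of 8 tested higher, none lower and a median of 0.39. Col20a1 stood at 1.49, 1.88 and 1.61 RPKM in controls and at 3.07, 4.14 and 3.88 RPKM in knockouts (0.82 ± 0.10, limma adjusted p = 0.0075), in all 6 leave-outs. Col22a1 stood at 1.20, 0.859 and 0.608 RPKM in controls and at 1.87, 2.26 and 1.77 RPKM in knockouts (0.66, limma adjusted p = 0.0265). Col9a3 (0.41, limma adjusted p = 0.0349) and Col2a1 (0.37, limma adjusted p = 0.0497), both known from cartilage, lost the call with the GC trend removed (0.124 and 0.256), Col2a1 also with the replicate block (0.0501), and the median of the 8 was then 0.20.

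Markers of the cells that surround germ cells gave few calls, all of them higher. Of 21 Sertoli cell genes tested, 2 rose and none fell, with a median of 0.34. Differences were above 0 for 19 of them, beside 5587 of all 7959 autosomal genes. Vim, the intermediate filament vimentin, stood at 9.05, 5.75 and 5.66 RPKM in controls and at 10.4, 11.6 and 14.2 RPKM in knockouts (0.76, limma adjusted p = 0.0487, and 0.0646 with the GC trend removed). Ctsl, a lysosomal protease that Sertoli cells secrete, stood at 52.9, 35.7 and 39.0 RPKM in controls and at 60.2, 69.3 and 82.4 RPKM in knockouts (0.73, limma adjusted p = 0.0497, and 0.0625 with the GC trend removed). With the replicate number as a block neither passed, with adjusted p of 0.0613 for Vim and 0.0591 for Ctsl. The summed level of the list was 337, 251 and 252 RPKM in controls 1, 2 and 3 and 339, 377 and 440 RPKM in knockouts. Control 1 nearly equalled knockout 1, and it was above both other controls for 18 of the 21 genes. That was not particular to Sertoli genes. It also held for 57 of 62 splicing factors and 54 of 78 ribosomal proteins, but for 3 of 11 Leydig genes.

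Peritubular myoid cells, the contractile wall of the tubule, had 1 higher gene of 6. That was Myl9, a myosin light chain, from 5.88, 5.03 and 4.73 RPKM in controls to 7.94, 8.12 and 9.17 RPKM in knockouts (0.60, limma adjusted p = 0.018). The summed level was 22 to 25.1 RPKM in controls and 31.0 to 35.9 RPKM in knockouts. Of 7 fibroblast and matrix genes 2 rose: Sparc, a matrix glycoprotein (0.68, limma adjusted p = 0.0348), and Timp2, an inhibitor of metalloproteases (0.54, limma adjusted p = 0.0392, and 0.0664 with the GC trend removed). Of 6 macrophage genes 1 rose, H2-Ab1, a class II antigen-presenting molecule (0.37, limma adjusted p = 0.0464, and 0.152 with the GC trend removed). The summed level of macrophage genes was 63.9 to 81.0 RPKM in controls and 84.5 to 108 RPKM in knockouts. The median differences of these 3 lists were 0.36, 0.36 and 0.31.

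Leydig cells, which make testosterone, gave no call in either direction among 11 genes tested. Insl3, the peptide hormone of these cells, stood at 67.9, 117 and 119 RPKM in controls and at 53.1, 244 and 312 RPKM in knockouts (0.70 ± 0.60, limma adjusted p = 0.453). Star, which delivers cholesterol to mitochondria, differed by 0.53 (limma adjusted p = 0.338), and Cyp17a1, an enzyme of androgen synthesis, by 0.02 (limma adjusted p = 0.971). The summed level ran from 114.5 to 170 RPKM in controls and was 90.1, 311 and 400 RPKM in knockouts 1, 2 and 3, so knockout 1 was below every control and the other two above them all.

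Markers of the rete and efferent ducts had a similar split, with summed levels of 48.5 to 59.4 RPKM in controls and of 56.2, 146 and 144 RPKM in knockouts. Lcn2, an iron-carrier binding protein, made up most of it in knockouts 2 and 3, at 10.8, 25.7 and 23.7 RPKM in controls and 10.9, 93.1 and 92.2 RPKM in knockouts (1.25, limma adjusted p = 0.3). Of the 6 genes of that list, the claudin Cldn3 (0.59, limma adjusted p = 0.0354) and the adhesion molecule Epcam (0.29, limma adjusted p = 0.0482) rose, and both lost the call with the GC trend removed (0.1 and 0.0817). No gene of the endothelium, lymphocyte or red blood cell lists reached the level for testing, and 1 of 15 epididymis genes did. Whether the higher somatic levels play a part in the other higher genes was not tested.

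Genes of premeiotic cells gave no call. Of 4 spermatogonial genes and 19 DNA replication genes, none was called by limma in either direction, with medians of 0.19 and 0.05. Other broad programmes had no call in either direction either. These were 78 cytosolic ribosomal proteins (median 0.17), 76 respiratory chain subunits (0.16), 62 splicing factors (0.01), 41 proteasome subunits (0.12), 23 citrate cycle enzymes (0.09) and 33 cilium transport genes (-0.04). In that order, differences were above 0 for 76, 74, 32, 35, 20 and 10 of them. A difference above 0 in nearly every member was thus also found in lists without a call. The 12 autosomal retrocopies of X-linked genes, which serve spermatocytes while the X chromosome is silent, also gave no call (0.15). Of 47 genes of messenger RNA translation 1 rose, Eif4h, and 2 fell, Etf1 and Paip2, by 0.52, -0.35 and -0.34 (limma adjusted p = 0.0339, 0.0461 and 0.0365), and each lost its call with the GC trend removed (0.0614, 0.0942 and 0.123).

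**Figure D5:**
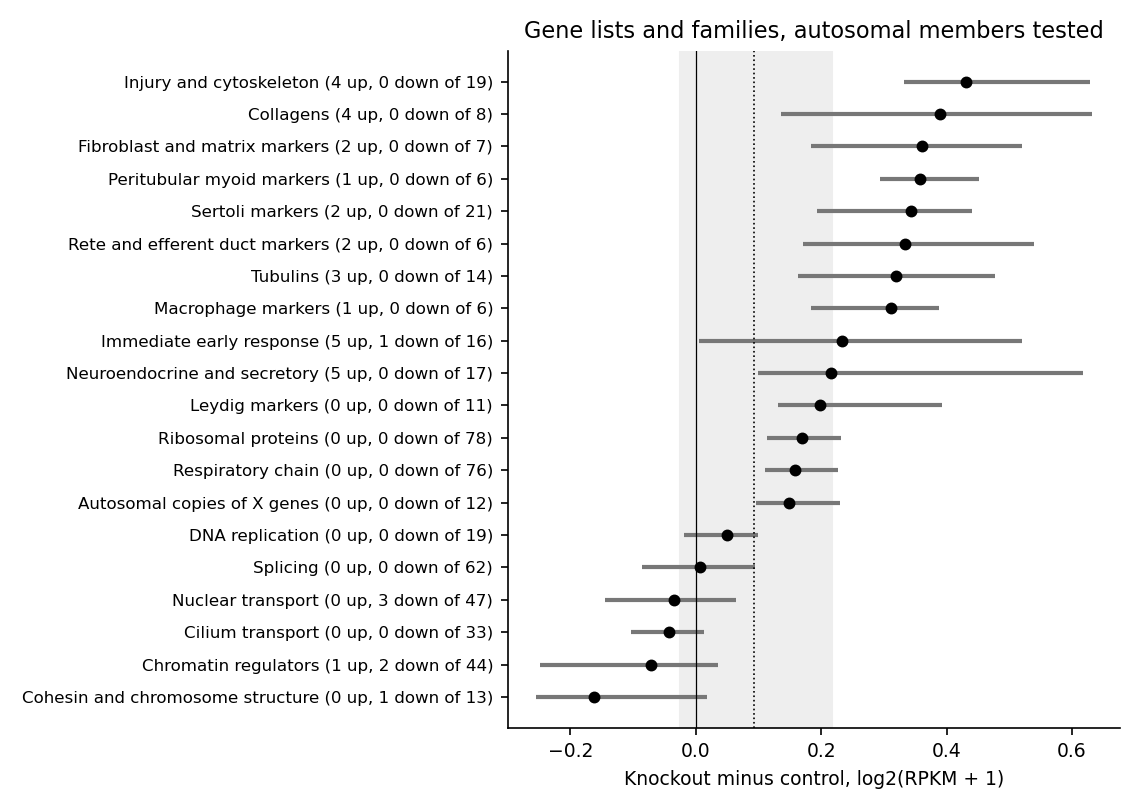
Median difference between knockout and control (log2(RPKM + 1), points) and interquartile range (bars) of the tested autosomal members of each gene list or family, with the number called higher and lower in brackets. The dotted line is the median of all autosomal genes (0.09) and the band their quartiles, and the lists run from 0.43 for injury and cytoskeleton genes to -0.16 for cohesin genes.

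The injury and cytoskeleton list, at the top of that plot, had 4 higher genes of 19 and none lower. Its median was 0.43, and 0.37 with the GC trend removed. All 19 differences were above 0, beside 5587 of all 7959 autosomal genes. The list was written with earlier results of these data known, so this shared direction is no independent support. The 4 were Tnfrsf12a and Vim, given above, with Ly6e and Hspb1. Ly6e, a small protein anchored in the cell membrane, rose by 1.07 (limma adjusted p = 0.0455, and 0.0695 with the GC trend removed). Hspb1, a small heat shock protein, rose by 0.94 (limma adjusted p = 0.0465, 0.0774 with the GC trend removed and 0.0595 with the replicate block). Of 29 autophagy and lysosome genes 2 rose, Ctsl and Ctsa (median 0.18), and of 12 cholesterol synthesis genes 1 rose, Fdps (median 0.10; the gene's limma adjusted p was 0.049, and 0.065 with the GC trend removed). The 22 genes of iron handling and oxidative defence gave no call in either direction (median 0.23).

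Genes known by a clone or model number made up 1712 of the autosomal genes tested, or 21.5%. Of these, 83 rose (4.85%) and 27 fell (1.58%), against 3.99% and 0.912% of genes with a full name. The 897 Rik clones gave 42 higher and 9 lower genes with a median of 0.10, and the 684 Gm models gave 34 and 15 with a median of 0.09. RefSeq listed 62 of the 110 called symbols, 38 as protein-coding genes and 24 as long non-coding RNAs, and 21 of them as a synonym of a gene with another symbol.

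The largest of these gains was 4930500M09Rik, which overlaps Uhmk1 by 538 bases on the opposite strand. It stood at 1.51, 1.69 and 0.909 RPKM in controls and at 5.50, 10.5 and 9.91 RPKM in knockouts (1.99 ± 0.22, limma adjusted p = 0.0041), in all 6 leave-outs. Uhmk1, a kinase with an RNA-binding motif, rose as well, from 1.42, 1.39 and 1.38 RPKM to 1.85, 2.12 and 1.88 RPKM (0.30 ± 0.06, limma adjusted p = 0.0364). The 2 are synonyms in RefSeq, and without strand in the counting their reads cannot be told apart. 1700019O17Rik, the testis gene Tex44 in RefSeq, stood at 27.2, 39.4 and 43.8 RPKM in controls and at 61.8, 95.1 and 79.7 RPKM in knockouts (1.08 ± 0.21, limma adjusted p = 0.0302). 4922505E12Rik, Ccdc185 in RefSeq, stood at 49.3, 61.9 and 50 RPKM in controls and at 77.0, 130 and 101 RPKM in knockouts (0.90, limma adjusted p = 0.0384).

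1700003F12Rik stood at 56.1, 52.5 and 57.4 RPKM in controls and at 84.6, 131 and 118 RPKM in knockouts (0.97, limma adjusted p = 0.0212). It overlaps Necab3, a calcium-binding protein gene that rose by 0.83 (limma adjusted p = 0.0216), and shares 72 bases of transcript with it. Gm9887 stood at 6.17, 4.96 and 4.59 RPKM in controls and at 9.93, 13.0 and 13.0 RPKM in knockouts (1.05, limma adjusted p = 0.0073), in all 6 leave-outs. Of the 332 higher genes, 131 overlap another gene, as do 28 of the 84 lower genes. The share among all autosomal genes was not counted, so no excess can be read from this.

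Among the losses, 1700092M07Rik, for which RefSeq lists the synonym Tex54, stood at 88.4, 117 and 102 RPKM in controls and at 50.3, 68.0 and 70.3 RPKM in knockouts (-0.70 ± 0.16, limma adjusted p = 0.0461). 1700001K19Rik stood at 7.49, 10.5 and 10.6 RPKM in controls and at 4.78, 5.41 and 5.11 RPKM in knockouts (-0.77 ± 0.13, limma adjusted p = 0.0209). In both, every knockout was below every control. The 5 pairs of lower genes within 100 kb all overlapped each other, and of 65 such pairs of higher genes 20 overlapped. Such pairs were not counted among all autosomal genes.

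The captured tubule regions gave a second look at the called genes in other libraries, with 2 per group and so no test. Of the 84 lower genes, 51 were detected in steps 4 to 8 regions and 37 of those (72.5%) were lower in knockout there, beside 46.8% of all autosomal genes. In steps 1 to 3 and 9 to 16 regions it was 33 of 45 (73.3%), beside 45.4%. Both knockout libraries were below both controls for 24 of 51 lower genes (47.1%, beside 12% of all) in steps 4 to 8 regions and for 8 of 45 (17.8%, beside 15.4%) in the others. The higher genes as a whole gave no such excess. 50.2% and 47.3% of them were higher in the captured regions, beside 53.2% and 54.6% of all autosomal genes, and both knockouts were above both controls for 13.5% and 15.6%, beside 16% and 20.5%. Of the 17 higher genes called in every leave-out and scaling, 10 were detected in each kind of region. Of those, 7 were higher in steps 4 to 8 regions and 9 in the others. These 17 were picked after their values were seen.

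Genes set apart the same way in whole testis and in both captured regions numbered 6 of the lower ones, or 14% of the 43 detected in both, beside 3.19% of all autosomal genes. They were Tor1aip1, Per1, Ubr7, 1700001K19Rik, 1700092M07Rik and Gm12081, and Gm12081 lost its whole-testis call with the GC trend removed (0.0791). Tor1aip1 stood at 8.92 and 11.4 RPKM in control and 4.05 and 2.43 RPKM in knockout regions of steps 4 to 8, and at 4.30 and 5.38 RPKM against 1.63 and 2.96 RPKM in the other regions. Per1 stood at 1.86 and 2.60 RPKM against 1.27 and 0.802 RPKM, and then at 1.97 and 4.63 RPKM against 0.528 and 0.613 RPKM. 1700092M07Rik stood at 451 and 657 RPKM against 221 and 313 RPKM, and then at 492 and 367 RPKM against 173 and 74.7 RPKM. For all 6 genes, each knockout library was below each control library of the same tissue or region.

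Impdh2 was set apart in steps 4 to 8 regions only, at 15.9 and 27.0 RPKM in control and 3.86 and 8.31 RPKM in knockout, since controls ran from 0.265 to 16.7 RPKM in the other regions. Among the graded losses, Lars2 stood at 0.056 to 2.28 RPKM over the 8 captured libraries. Zc3h7a stood there at 0.188 to 1.04 RPKM and Jarid2 at 0.041 to 0.752 RPKM. Il31ra stood at 0.00294 to 0.237 RPKM and Zfp791 at 0.00384 to 0.263 RPKM. At such low levels the captured libraries say little of these losses. Kpna1 was higher in knockout steps 4 to 8 regions, at 2.30 and 1.85 RPKM against 0.822 and 1.15 RPKM. Of the higher genes, 9 were set apart the same way in both regions, or 4.27% of 211, beside 6.19% of all. Tbcc was among them, at 35.2 and 36.9 RPKM against 50.1 and 61.6 RPKM in steps 4 to 8, and at 48.4 and 47.5 RPKM against 63.4 and 77.7 RPKM in the other regions. Tuba4a was not, with knockout values of 2.18 and 21.8 RPKM on either side of controls at 11.99 and 11.5 RPKM in steps 4 to 8 regions.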

How the data were processed

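RNA from 6 adult whole testes, 3 control and 3 knockout, was extracted with Isogen and made into libraries with a directional kit, per the labels' protocols. Reads were checked with FastQC, trimmed with Trim Galore 0.4.0 and aligned to mm10 with HISAT2 2.1.0, per the submitters' processing notes. The sources used here do not say how reads were counted, on which annotation, or with or without strand. The authors deposited log2 RPKM per gene, with the gene span as length and 0.9 read in place of 0. Before the file was read, RPKM had been assumed; values were converted back, and 99.99% of them were whole reads within 0.05.

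Genes with RPKM of at least 1 in 3 of 6 libraries were tested on log2(RPKM + 1) with limma 3.58.1 in R 4.3.3 (intensity trend, two-sided, Benjamini-Hochberg over 8146 genes). The script was tested on simulated data. Same-numbered control and knockout libraries deviated together from their group means (r = 0.33, 0.36 and 0.15), so counts from a model blocked on that number are given too. Control 3 with knockout 2 had an r of 0.30, above that of the pair numbered 3. Control 1 with knockout 3 had 0.03, and the other unlike-numbered pairs were negative. The labels do not say that libraries of the same number are paired. Transcript GC and length came from the mouse annotation. Genes, lists and families were chosen with earlier results of these data known. Genes were named as the 20 largest differences per direction, 10 per direction among unnamed symbols, and up to 4 called members per list or family; other genes are overlapping partners, uncalled members of a list, or were picked after their values were seen. No list was tested as a set. A result that was withheld is not reported here.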

Additional observations from a re-analysis of the deposited data

Results flagged for a closer look

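Genes whose 3 knockout libraries were all on one side of the controls in whole testis, and whose 2 knockout libraries were all on the opposite side in a captured region, were picked out among 121 named autosomal genes, all by the same comparison. They make 21 results for 19 genes, 7 in steps 4 to 8 regions and 14 in steps 1 to 3 and 9 to 16 regions. In the same order of regions, both knockouts were below both controls for 9.87% and 22.2% of all detected higher genes. For all autosomal genes it was 12% and 15.4%. Both knockouts were above both controls for 4 of 51 and 0 of 45 detected lower genes, beside 16% and 20.5% of all. The difference between tissues was not tested, and the captured groups hold 2 libraries each.

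Of the genes lower in whole testis, Kpna1 went the other way, with a captured difference of 0.631 on the log2(RPKM + 1) scale in steps 4 to 8 regions. The other results are genes higher in whole testis and lower in captured regions. In steps 4 to 8 regions the captured difference was -1.78 for Fam122a, -0.633 for Ehmt2, -0.512 for Tsga10ip, -0.37 for Mrps26, -0.345 for Necab3 and -0.299 for 1700003F12Rik. In steps 1 to 3 and 9 to 16 regions it was -2.37 for Fam122a, -1.56 for Itpripl1, -1.25 for the CHOP factor Ddit3, -1.19 for Rnf44 and for Ankrd23, -1.09 for Trim45 and -1.05 for Epcam. In the same regions it was -0.928 for the kinase substrate Tsks, -0.819 for Timp2, -0.705 for 1700019O17Rik and -0.476 for the translation factor Eif4h. The smallest were -0.394 for CAAA01154301.1, -0.365 for Dnajc21 and -0.331 for Tsga10ip. Fam122a and Tsga10ip were opposite in both regions. In whole testis some of these calls were lost with the GC trend removed, where the limma adjusted p was 0.0841 for Fam122a, 0.0715 for Tsga10ip, 0.0538 for Mrps26, 0.0679 for Rnf44, 0.109 for Ankrd23 and 0.0626 for Trim45. With the replicate block Mrps26 was at 0.0537.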

How the results depend on the processing

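The counts of higher and lower autosomal genes moved with most settings. No named gene changed direction under any of the 20 alternatives, but most of these could not have changed it. The groups of every called gene did not overlap, so leave-outs, pseudocounts, filters and the replicate block had to keep its direction. Scaling gave 106 higher with a common sum, 191 higher and 220 lower when medians were equalised, and 155 and 129 when quantiles were. Filters gave 49 and 39 without a minimum and 165 and 21 for genes whose mean RPKM reached 5. The replicate block gave 506 and 140. Leaving out 1 library gave 18 to 1247 higher and 5 to 252 lower, and leaving out both libraries numbered 1 gave 2302 and 559. Limma voom on recovered reads gave 977 and 1439, of which 316 and 82 were among the 332 and 84. With the GC trend removed the counts were 127 and 31, and with GC and length removed 127 and 29. Pseudocounts of 0.1 and 4 gave 317 and 75, and 339 and 91. The settings on GC and length were chosen after seeing the data. The cause of these shifts was not tested.

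Of 122 named genes, 114 kept their call under the replicate block (of those given here Vim, Ctsl, Hspb1, Gadd45b, Col2a1 and Mrps26 lost it), 121 with voom, 100 with median centring, 85 with quantile normalization, 80 with a common sum and 60 of 112 with the GC trend removed. With 3 libraries per group, 24, 22, 16 and 14 of the 122 kept it without control 2, control 3, knockout 2 or knockout 3. Of 60 list and family medians, 31 changed sign in some setting, and none of the 11 whose median was at least 0.2 did.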
